A study of Mus musculus with 6 samples.

Results

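The 10 genes described here write, copy or erase DNA methylation, or form the core of Polycomb repressive complex 2 (PRC2). They are Ezh2, Eed and Suz12, the core of PRC2; Dnmt1, Dnmt3a and Dnmt3b, which methylate DNA, with Uhrf1, which recruits Dnmt1; and Tet1, Tet2 and Tet3, which oxidize methylated DNA. They were chosen by name from the 54532 genes of the deposited expression table, and each name matched 1 gene. RNA was sequenced from bone marrow (BM) of male C57BL/6 mice at day 100 after transplantation. In both groups the transplanted cells were lineage-negative progenitors infected with a retrovirus that carries JAK3 M511I, an activating mutant of a Janus kinase, together with GFP, and were given to irradiated recipients to model T-ALL, an acute leukemia of T-cell precursors. The 3 wild-type libraries (WT 1 to WT 3) had Phf6 fl/y donors, which carry the floxed allele without Cre. The 3 knockout libraries (KO 1 to KO 3) had Vav1-Cre;Phf6 fl/y donors, in which the Vav1 promoter drives Cre in hematopoietic cells, so other cells of the donor and all cells of the host keep Phf6. The genotype labels count up the digit of the gene name from sample to sample, and all 6 were read as Phf6, the gene named in the design of the series. The labelled tissue is BM, and the labels say nothing of a sort for GFP-positive cells.

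Maintenance and new methylation of DNA are separate tasks. Dnmt1, guided to replicated DNA by Uhrf1, copies the methylation pattern to the new strand after replication, whereas Dnmt3a and Dnmt3b methylate sites that carried no mark. The Tet enzymes oxidize 5-methylcytosine, which leads to its loss by dilution or by base excision repair. PRC2 trimethylates histone H3 (H3K27me3) at silenced genes; Ezh2 is its catalytic subunit, Eed binds the mark and stimulates the enzyme, and Suz12 holds the complex together. EZH2, EED, SUZ12, DNMT3A and TET2 are among the genes mutated in human T-cell or myeloid leukemias, and PHF6 is another.

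The libraries differed in more than the label. The gene-level FPKM of Phf6, which spans both the floxed and the remaining exons, did not separate the groups (log2 fold change -0.07, limma adjusted p = 0.893), so it does not check the genotype. Recovered totals lay between 13015823 and 18235095 reads. WT 2 stood apart: genes of at least 8000 bases took 6.74% of its reads and between 22.9% and 26.5% in the other 5 libraries. Markers of T cells were present throughout, with a summed FPKM of 1080 to 2235 in WT and 1099 to 1323 in KO (1 of 8 markers higher, 0 lower). The sum hides shifts within the list. Cd4, the marker that was higher, lay at 1.45 to 2.90 in WT and 50.5 to 98.4 in KO. Cd8b1 lay at 276 to 788 in WT and 114 to 141 in KO (limma, adjusted p = 0.0512). Several other lists separated by label. The 5 immature thymocyte markers summed to 1.31 to 31.6 in WT and 810 to 963 in KO, and all 5 were higher. Of them Ptcra was at 0 in every WT library. The 7 neutrophil markers summed to 6332 to 89144 in WT and 89.2 to 267 in KO, and all 7 were lower. The NK cell markers summed to 69.5 to 178 in WT and 0.431 to 1.52 in KO, with 3 of 3 tested lower, and the monocyte and macrophage markers to 303 to 4657 and 3.08 to 14.7, again with 3 of 3 tested lower. Of all genes tested, 13.1% were higher and 13.3% lower. A gene was tested if it reached an FPKM of 1 in 3 libraries. Klrb1c, Klrk1, Eomes, Csf1r and Cd14 did so in WT only and Ptcra in KO only, so these had to differ between groups to be tested. Rag1, Rag2 and Dntt reached that FPKM in KO and, among the WT libraries, in WT 2 alone, and Il2ra in KO, WT 2 and WT 3. They would not have been tested without their KO values. Summed B cell markers lay between 11.1 and 977 in WT and between 0.906 and 1.11 in KO, and erythroid markers between 118 and 58622 in WT and between 9.26 and 105 in KO; no tested gene of these 2 lists passed. Stem and progenitor markers summed to 0.844 to 5.51 in WT and 3.32 to 8.50 in KO. No marker list was at 0 in all libraries of a group. In bulk RNA, fewer cells of a type and less RNA per cell cannot be told apart, and the part that these markers play in the results below was not tested.

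Levels are given as FPKM, fragments scaled to the length of the gene and the size of the library, which can be set side by side between genes. Changes are differences of log2(FPKM + 1), KO over WT, tested by limma with Benjamini-Hochberg adjustment over 13393 genes that reached an FPKM of 1 in at least 3 of the 6 libraries. Of the 10 genes, 5 passed at an adjusted p under 0.05, against 26.4% of all genes tested. They were Uhrf1, Tet1, Dnmt3a and Dnmt1, which were higher in KO (4 of 10, against 13.1% of all genes), and Tet2, which was lower (1 of 10, against 13.3%). The 3 WT and the 3 KO values did not overlap in 8 of the 10, against 49.1% of all genes, and Eed and Tet3 were the exceptions. Tet1 and Tet2 reached the filter in 3 libraries of a single group, so they had to differ between groups to be tested at all. Without WT 2, 8 of the 10 genes passed, 7 higher and 1 lower, when 52.0% of all genes did (26.8% higher and 25.3% lower). Without KO 1, KO 2 or KO 3, 2 of the 10 passed, both higher, when 15.5%, 14.4% and 15.1% of all genes passed.

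**Figure D1:**
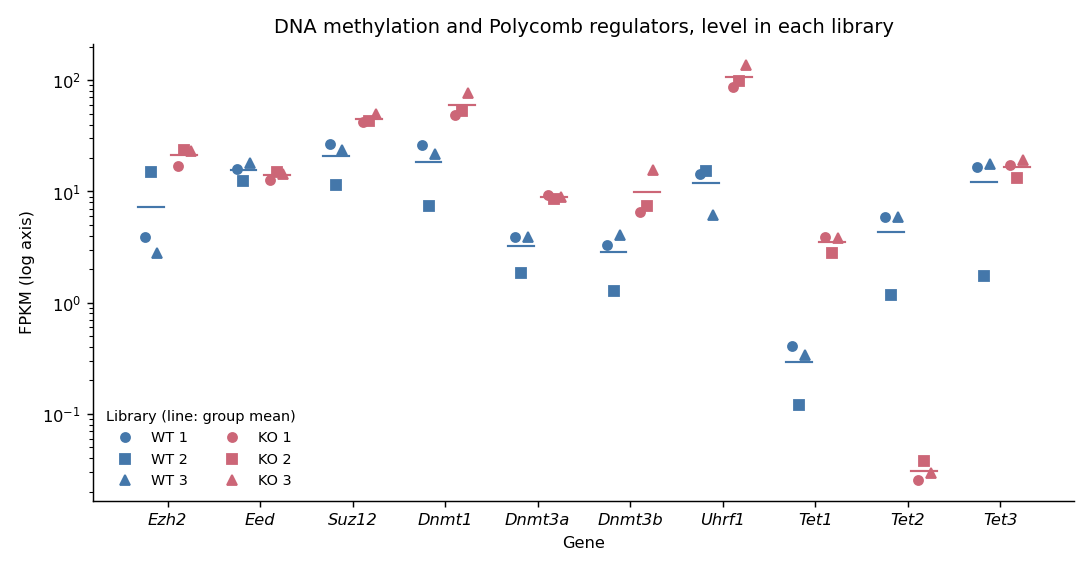
FPKM on a log axis of the 10 genes in the 3 WT libraries (blue) and the 3 KO libraries (red); circles, squares and triangles stand for replicates 1, 2 and 3, and a line marks the group mean. Tet2 lies between 0.0255 and 0.0376 in KO and between 1.18 and 5.93 in WT, Uhrf1 and Tet1 lie higher in every KO library than in any WT library, and Eed and Tet3 overlap.

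The make-up of the Tet family differed between the groups, while the ranges of its summed level overlapped. Positions are given on GRCm38, the build of the deposited coordinates. Tet2 (ENSMUSG00000040943, chr3:133463679-133545139, minus strand) stood at 5.93 FPKM in WT 1, 1.18 in WT 2 and 5.84 in WT 3, against 0.0255 in KO 1, 0.0376 in KO 2 and 0.0295 in KO 3. Every KO value was under the lowest WT value, which was that of WT 2. The KO values rest on 8, 10 and 8 reads, with exact 95% Poisson intervals of 0.0110 to 0.0502, 0.0181 to 0.0692 and 0.0127 to 0.0580 FPKM that cover counting error only, while the WT values rest on 1545, 234 and 1527 reads. The mean was 4.32 ± 2.72 (SD, n = 3) in WT and 0.0309 ± 0.00622 (SD, n = 3) in KO, a level 140-fold lower in KO, or 191-fold lower against WT 1 and WT 3 alone. On the log2(FPKM + 1) scale, which compresses low values, the change of Tet2 was -2.19 ± 0.46 (SE; limma, adjusted p = 0.0158). With voom on the recovered reads, the change of Tet2 was -6.35. Its position among the falls of the 13393 genes was 946 in the main test and 245 with voom. The test of Tet2 passed in 15 of 18 alternatives, and the 3 that missed left out KO 1, KO 2 or KO 3, with adjusted p between 0.0633 and 0.0647 and the log2 change between -2.19 and -2.18.

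The level of Tet1 (ENSMUSG00000047146, chr10:62804570-62908996, minus strand) went the other way. Its FPKM was 0.411, 0.121 and 0.342 in WT 1, WT 2 and WT 3, from 98, 22 and 82 reads, and 3.90, 2.79 and 3.81 in KO 1, KO 2 and KO 3, from 1122, 680 and 949 reads. All KO values of Tet1 were above all WT values, and within each group replicate 2 was lowest. The mean rose from 0.291 ± 0.151 (SD, n = 3) to 3.50 ± 0.614 (SD, n = 3), 12.0-fold, with a log2 change of 1.80 and an SE of 0.21 (limma, adjusted p = 0.00186). Tet1 passed in all 18 alternatives in which it was tested.

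Tet3 (ENSMUSG00000034832, chr6:83362373-83459084, minus strand), the most abundant of the 3 enzymes in every library, had an FPKM of 16.8, 1.72 and 17.7 in WT and of 17.1, 13.3 and 19.1 in KO. WT 2 was far under the other WT libraries, which both lay within the KO range. Its log2 change, 0.84 ± 0.75 (SE), missed the threshold (limma, adjusted p = 0.465), and leaving out WT 2 turned it to -0.07 (adjusted p = 0.749). Tet3 spans 16695 bases of exons in the authors' gene model, and over the 1718 tested genes of at least 8000 bases the median level in WT 2 was 0.528 of the mean of WT 1 and WT 3.

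Shares within a library do not depend on how libraries were scaled. Tet2 made up 25.7%, 39.0% and 24.5% of the summed Tet FPKM in WT 1, WT 2 and WT 3, and 0.121%, 0.234% and 0.129% in KO 1, KO 2 and KO 3. Tet1 made up 1.78%, 4.005% and 1.44% in WT and 18.5%, 17.4% and 16.6% in KO. Tet3 accounted for 67.9% ± 9.47 (SD, n = 3) in WT and 82.3% ± 0.925 (SD, n = 3) in KO. The groups did not overlap for any of these 3 shares. The summed Tet FPKM was 23.1, 3.02 and 23.8 in WT and 21.1, 16.1 and 22.9 in KO, so its ranges overlapped. The Tet1 to Tet2 ratio was between 0.0586 and 0.103 in WT and between 74.2 and 153 in KO, a difference of 10.6 on the log2 scale (exact permutation test, two-sided, p = 0.1, adjusted p = 0.167 over 10 ratios), and 0.1 is the smallest p that 3 against 3 libraries allow.

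**Figure D2:**
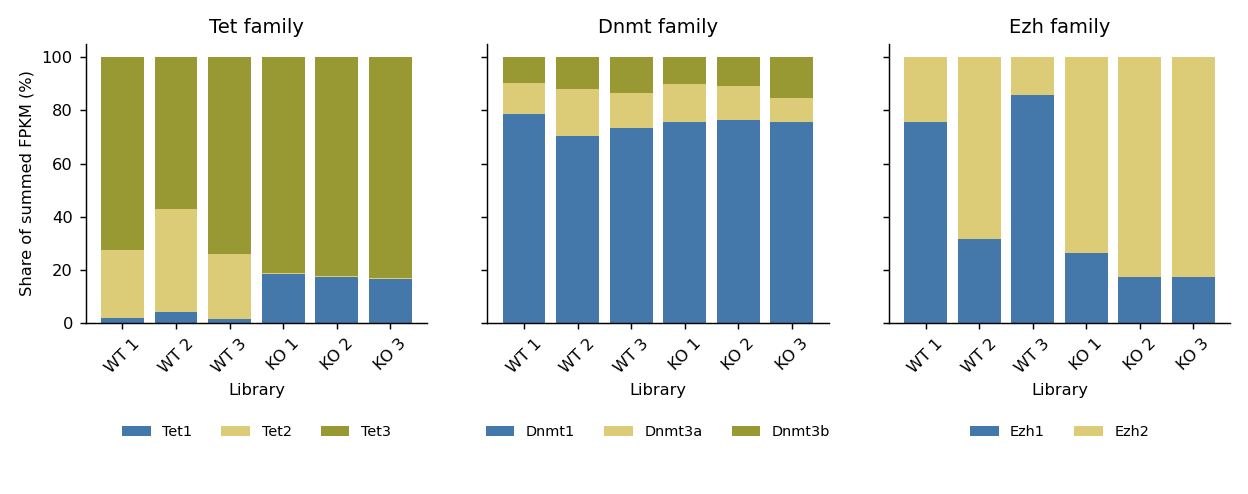
Share in percent of the summed FPKM of the Tet family (Tet1, Tet2, Tet3), the Dnmt family (Dnmt1, Dnmt3a, Dnmt3b) and the Ezh pair (Ezh1, Ezh2) in each of the 6 libraries. Tet2 falls from at least 24.5% of the Tet sum in WT to at most 0.234% in KO, the Dnmt make-up overlaps between groups, and Ezh2 makes up 14.3% to 68.3% of the Ezh sum in WT and 73.5% to 82.7% in KO.

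Tet2 is expressed in many blood cells, so its level is set here beside the marker sums. In WT 1, WT 2 and WT 3, neutrophil markers summed to 31271, 89144 and 6332, while Tet2 stood at 5.93, 1.18 and 5.84. NK cell markers summed to 176, 69.5 and 178 in the same libraries. Tet2 spans 16870 bases of exons, and tested genes of at least 8000 bases were low in WT 2 (median 0.528 of the mean of WT 1 and WT 3). Its value in WT 2 therefore cannot be read for cell content alone. The part of either cell type in the fall of Tet2 was not tested.

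A promoter window each of Tet1 and Tet2 is shown because these 2 genes moved in opposite directions. RefSeq windows of GRCm38.p6, from 250 bases before to 50 bases after each annotated start, were found for 10 of the 10 genes, in 15 windows. CpG dinucleotides, the sites that the Dnmt and Tet enzymes act on, are in capitals, 5′ to 3′ on the strand of the gene. The window of Tet1 (chr10:62887275-62887574, minus strand) held 17 CpG, and that of Tet2 (chr3:133544341-133544640, minus strand) held 57, against a median of 7 over all 32851 windows. At least 17 CpG were found in 31.4% of all windows and at least 57 in 0.152%. In the deposited coordinates, the Tet1 window lies well inside the gene, whose minus-strand start is at 62908996. The Tet2 window lies near the start of its gene, at 133545139. The CpG counts of Tet1 and Tet2 thus come from unlike positions. DNA methylation itself was not measured here.
Tet1: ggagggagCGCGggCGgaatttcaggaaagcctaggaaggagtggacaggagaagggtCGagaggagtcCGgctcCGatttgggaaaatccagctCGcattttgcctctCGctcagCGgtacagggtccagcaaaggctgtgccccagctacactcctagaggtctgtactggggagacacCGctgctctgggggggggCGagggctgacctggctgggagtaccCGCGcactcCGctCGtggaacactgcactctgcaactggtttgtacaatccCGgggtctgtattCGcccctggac
Tet2: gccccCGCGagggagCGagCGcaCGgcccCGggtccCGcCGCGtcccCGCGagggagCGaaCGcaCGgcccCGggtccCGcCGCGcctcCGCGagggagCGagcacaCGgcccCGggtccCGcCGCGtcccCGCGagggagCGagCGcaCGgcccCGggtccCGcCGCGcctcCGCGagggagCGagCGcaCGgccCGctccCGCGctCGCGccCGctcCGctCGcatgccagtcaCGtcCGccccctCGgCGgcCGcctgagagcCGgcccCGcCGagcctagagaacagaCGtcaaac

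Uhrf1 (ENSMUSG00000001228, chr17:56303321-56323486, plus strand) showed the largest log2 change of the 10 genes on the log2(FPKM + 1) scale. It binds hemimethylated DNA behind the replication fork and brings in Dnmt1. Its FPKM was 14.4, 15.3 and 6.10 in WT 1, WT 2 and WT 3, and 86.5, 99.0 and 138 in KO 1, KO 2 and KO 3. The lowest KO library was thus well above the highest WT library, and KO 3 was highest. The mean rose from 11.9 ± 5.07 (SD, n = 3) to 108 ± 26.8 (SD, n = 3), 9.04-fold, with a log2 change of 3.14 and an SE of 0.40 (limma, adjusted p = 0.00243), at position 178 among the rises of the 13393 genes. With voom on the recovered reads, its position was 603. Uhrf1 passed in all 19 alternatives, with log2 changes from 2.75 to 4.04. By mean level it ranked 5 among the 10 genes in WT and 1 in KO.

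Dnmt1 (ENSMUSG00000004099, chr9:20907209-20959888, minus strand), the maintenance methyltransferase, had an FPKM of 26.4, 7.41 and 21.8 in WT and of 49.1, 52.5 and 76.6 in KO. The groups did not overlap, WT 2 was lowest and KO 3 highest. Its log2 change was 1.77 ± 0.49 (SE; limma, adjusted p = 0.0391), and the means were 18.5 ± 9.89 and 59.4 ± 15.0 (SD, n = 3 each). The call was lost without WT 3 (adjusted p = 0.0566), without KO 1 (0.0994), without KO 2 (0.112) and without KO 3 (0.143), with log2 changes of 1.58 to 1.97. With all 6 libraries it was also lost with voom (limma, adjusted p = 0.0604), on TPM (0.0619) and with no filter on low values (0.0707). Dnmt1 passed in 12 of 19 alternatives. The ratio of Uhrf1 to Dnmt1 was 0.544, 2.07 and 0.281 in WT and 1.76, 1.89 and 1.80 in KO, with WT 2 above every KO library (exact permutation test, two-sided, p = 0.4).

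Dnmt3a (ENSMUSG00000020661, chr12:3806007-3914443, plus strand), a de novo methyltransferase, had an FPKM of 3.90, 1.85 and 3.88 in WT and of 9.34, 8.64 and 8.91 in KO. The KO values were nearly the same and all above WT. The log2 change was 1.29 ± 0.29 (SE; limma, adjusted p = 0.0201). The call was lost when KO 1, KO 2 or KO 3 was left out, at adjusted p between 0.0847 and 0.0863 and log2 changes of 1.26 to 1.31.

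Dnmt3b (ENSMUSG00000027478, chr2:153649450-153687730, plus strand), the other de novo enzyme, had an FPKM of 3.29, 1.27 and 4.03 in WT and of 6.59, 7.43 and 15.6 in KO. The groups did not overlap, and KO 3 lay apart from the other KO libraries. The log2 change of 1.48 ± 0.44 (SE) just missed the threshold (limma, adjusted p = 0.0516). Without WT 2, Dnmt3b had a log2 change of 1.14 and an adjusted p of 0.0395. With all 6 libraries, Dnmt3b passed with quantile normalization (limma, adjusted p = 0.0293), with the length trend removed (0.043) and with array weights (0.00563), and it passed in 6 of 19 alternatives in all.

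The make-up of the Dnmt family overlapped between the groups. Dnmt1 made up 74.1% ± 4.14 (SD, n = 3) of the summed Dnmt FPKM in WT and 75.9% ± 0.543 (SD, n = 3) in KO, while the sum was 33.6, 10.5 and 29.7 in WT and 65.1, 68.5 and 101 in KO. The ratio of Dnmt3a to Dnmt3b was 0.963 to 1.46 in WT and 0.570 to 1.42 in KO (difference of -0.28 on the log2 scale, exact permutation test, two-sided, p = 0.6), and without KO 3 the difference was 0.11. The ratio of Dnmt3a to Dnmt1 was 0.148 to 0.250 in WT and 0.116 to 0.190 in KO (exact permutation test, two-sided, p = 0.5).

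Among the core subunits of PRC2, none passed the main test, and the calls of Ezh2 and Suz12 turned on the processing. Ezh2 (ENSMUSG00000029687, chr6:47530139-47595341, minus strand) stood at 3.89 FPKM in WT 1, 14.9 in WT 2 and 2.78 in WT 3, against 16.9 in KO 1, 23.8 in KO 2 and 23.0 in KO 3. All KO values were above all WT values, with WT 2 close to KO 1 and well above the other WT libraries. The log2 change was 1.73 ± 0.55 (SE; limma, adjusted p = 0.0633). Without WT 2 it was 2.36 ± 0.21 (SE; adjusted p = 0.00051). With all 6 libraries, Ezh2 also passed with quantile normalization (limma, adjusted p = 0.0363), TPM (0.00352), voom (0.0162) and array weights (2.65e-05), so that it passed in 6 of 19 alternatives.

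Suz12 (ENSMUSG00000017548, chr11:79993106-80034123, plus strand) lay at an FPKM of 27.0, 11.3 and 23.8 in WT and of 42.0, 43.0 and 49.7 in KO. These groups did not overlap either, and WT 2 was lowest. The log2 change was 1.16 ± 0.36 (SE; limma, adjusted p = 0.0563), and without WT 2 it was 0.80 (adjusted p = 0.00498). With all 6 libraries, Suz12 passed with quantile normalization (limma, adjusted p = 0.0273), with the length trend removed (0.0393) and with array weights (0.00156), and in 5 of 19 alternatives in all. WT 2 thus lay on opposite sides of its group for Ezh2, at 4.48 times the mean of WT 1 and WT 3, and for Suz12, at 0.447 times that mean.

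Eed (ENSMUSG00000030619, chr7:89954654-89980983, minus strand) lay at an FPKM of 16.1, 12.4 and 17.9 in WT and of 12.6, 15.1 and 14.3 in KO, and the groups overlapped. The log2 change was -0.12 ± 0.24 (SE; limma, adjusted p = 0.749), and it passed in 0 of 19 alternatives. Its sign turned with TPM (0.68), where the median of all genes was 0.86, and with voom (0.28), where that median was 0.56.

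The balance of the subunits was read within libraries. The ratio of Ezh2 to Ezh1, the catalytic paralog that is usually more prominent in resting cells, was 0.320, 2.15 and 0.167 in WT and 2.78, 4.78 and 4.77 in KO. The ratio of Ezh2 to Eed was 0.242, 1.21 and 0.155 in WT and 1.35, 1.57 and 1.61 in KO. Neither ratio overlapped between groups, with differences of 3.04 and 2.08 on the log2 scale (exact permutation test, two-sided, p = 0.1 for each, adjusted p = 0.167), but WT 2 was near the KO values in both. The ratio of Ezh2 to Suz12 was 0.144, 1.32 and 0.117 in WT and 0.404, 0.553 and 0.463 in KO, so that WT 2 exceeded every KO library (exact permutation test, two-sided, p = 0.5).

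**Figure D3:**
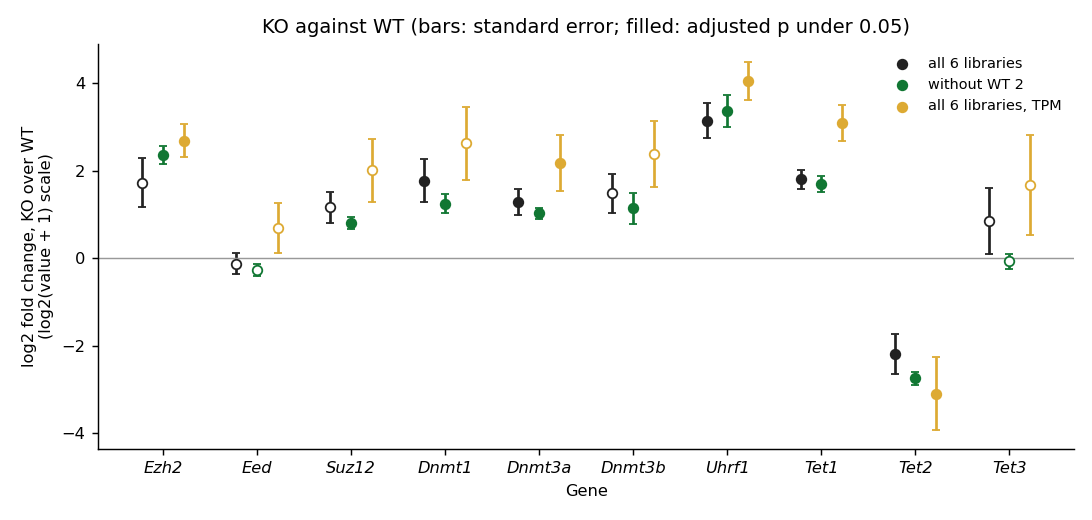
Log2 fold change, KO over WT, of the 10 genes with standard errors, on all 6 libraries, without WT 2, and on all 6 libraries rescaled to TPM; filled points have an adjusted p under 0.05. Without WT 2 the 8 genes other than Eed and Tet3 are filled, and Ezh2 moves from 1.73 to 2.36; on TPM the median of all genes is itself 0.86 above 0.

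Ezh2, Dnmt1 and Uhrf1 are known to be made mostly in dividing cells, so proliferation genes are given beside them. The 11 proliferation genes summed to an FPKM of 152, 214 and 63.8 in WT and of 283, 370 and 414 in KO. Uhrf1 put the 6 libraries in the same order as this sum, and Ezh2 did so except for KO 2 and KO 3. Dnmt1 did not, and was lowest in WT 2, at 7.41, where the sum was highest among the WT libraries. The median log2 change of the list was 1.31, against 0.09 for all genes. Of the 11, 3 passed, all higher (Top2a 2.02, Ccnb1 1.85 and Mcm2 1.25), when 26.4% of all genes passed and 13.1% were higher. Without WT 2, 11 of 11 passed, when 52.0% of all genes did. Without KO 1, KO 2 or KO 3, 0 of 11 passed, when 15.5%, 14.4% and 15.1% of all genes did. Without WT 1, 1 passed (19.6% of all genes), and without WT 3, 2 passed (23.5%). Pcna, the replication clamp, had an FPKM of 83.1, 106 and 82.8 in WT and of 81.4, 128 and 155 in KO, which overlapped. Relative to Pcna, Dnmt1 was at 0.317, 0.0701 and 0.263 in WT and at 0.604, 0.411 and 0.496 in KO. Ezh2 relative to Pcna was at 0.0468, 0.141 and 0.0336 in WT and at 0.208, 0.186 and 0.149 in KO. Both ratios were higher in every KO library than in any WT library, by 1.47 and 1.57 on the log2 scale (exact permutation test, two-sided, p = 0.1 for each, adjusted p = 0.167). Pcna itself had a log2 change of 0.38 (limma, adjusted p = 0.463), under the median of 1.31 of the proliferation list. The 2 ratios therefore hold for Pcna alone, and ratios to the 11 proliferation genes were not taken. The part of proliferation in the levels of the 10 genes was not tested.

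E2F factors drive many genes of the S phase, and the promoter windows were searched on both strands for 4 forms of their site, TTTCCCGC, TTTGGCGC, TTTCGCGC and TTTGCCGC. Any of them was found in 2.26% of all windows and in 4 of the 15 windows of the 10 genes, those of Ezh2, Suz12 and 1 window each of Dnmt1 and Uhrf1. Each form holds a CpG, and these 4 windows held 31 to 41 CpG, against a median of 7 over all windows. Windows of like CpG content were not compared, so the 2 shares do not show an excess of E2F sites. The windows of Ezh2 (chr6:47594981-47595280, minus strand), Suz12 (chr11:79992856-79993155, plus strand) and Dnmt1 (chr9:20952574-20952873, minus strand) are shown because Ezh2 and Suz12 belong to 1 complex and Dnmt1 held 2 matches. They are from RefSeq on GRCm38.p6, 5′ to 3′ on the strand of the gene, with the matches in capitals, and the first match in Dnmt1 is on the opposite strand. A match is a likeness of letters, and binding was not measured.
Ezh2: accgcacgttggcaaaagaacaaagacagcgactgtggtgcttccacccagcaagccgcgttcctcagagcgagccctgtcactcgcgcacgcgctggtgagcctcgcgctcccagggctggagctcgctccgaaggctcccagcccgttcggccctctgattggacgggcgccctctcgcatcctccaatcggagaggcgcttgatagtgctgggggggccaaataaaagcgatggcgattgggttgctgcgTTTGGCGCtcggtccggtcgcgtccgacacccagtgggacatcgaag
Suz12: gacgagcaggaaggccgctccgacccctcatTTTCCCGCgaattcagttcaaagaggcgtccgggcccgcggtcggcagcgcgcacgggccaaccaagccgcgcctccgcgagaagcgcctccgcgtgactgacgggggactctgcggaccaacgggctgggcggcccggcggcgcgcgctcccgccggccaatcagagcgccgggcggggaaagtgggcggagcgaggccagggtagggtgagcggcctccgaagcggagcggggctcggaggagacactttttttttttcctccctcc
Dnmt1: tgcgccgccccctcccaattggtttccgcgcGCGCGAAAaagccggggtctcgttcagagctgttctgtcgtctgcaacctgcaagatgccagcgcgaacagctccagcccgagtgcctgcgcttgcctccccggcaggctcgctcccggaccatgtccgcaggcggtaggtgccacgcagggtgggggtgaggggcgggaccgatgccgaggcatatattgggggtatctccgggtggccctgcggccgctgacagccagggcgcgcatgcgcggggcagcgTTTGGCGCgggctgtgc

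Of 10 accessory subunits and partners of PRC2 listed, 9 were tested, and 2 were higher and 1 was lower in KO, a share called near the 26.4% of all genes. Their median log2 change was 0.34, against 0.09 for all genes. Mtf2, which brings PRC2 to unmethylated CpG islands, had an FPKM of 9.31, 3.25 and 9.998 in WT and of 84.9, 72.2 and 84.7 in KO. Its related subunit Phf1 had an FPKM of 65.2, 59.4 and 70.8 in WT and of 8.46, 9.23 and 7.95 in KO. The pair thus stood in opposite order in WT and KO, and neither gene overlapped between groups. The mean of Mtf2 was 10.7-fold higher in KO (log2 change 3.38, limma, adjusted p = 0.00202) and that of Phf1 was 7.62-fold lower (log2 change -2.79, adjusted p = 0.000445), and both passed in all 19 alternatives. Rbbp4, a histone-binding subunit, had a log2 change of 0.98 (limma, adjusted p = 0.0402) and passed in 10 of 19. Ezh1, at a log2 change of -0.97, missed the threshold (limma, adjusted p = 0.0854) but passed without WT 2 (-1.28, adjusted p = 0.00291). Without WT 2, 2 of the 9 partners were higher and 3 lower, near the 26.8% and 25.3% of all genes, and with any other library left out 1 was higher and 1 or 2 lower.

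Of 22 subunits of Polycomb repressive complex 1 (PRC1), which ubiquitinates histone H2A and compacts chromatin, 4 were higher and 2 lower in KO, near the 13.1% and 13.3% of all genes, with a median of 0.24. Those higher were the chromobox proteins Cbx2 (log2 change 1.81, limma, adjusted p = 0.00244) and Cbx6 (2.24, adjusted p = 0.00493), the ring finger subunit Pcgf3 (1.33, adjusted p = 0.00971) and the polyhomeotic subunit Phc1 (1.02, adjusted p = 0.0308). Those lower were Pcgf2 (-2.21, limma, adjusted p = 0.00218) and Yaf2 (-1.99, adjusted p = 0.00301). Cbx2 and Pcgf2 reached the filter in a single group. Without WT 2, 4 were higher and 5 lower, against 26.8% and 25.3% of all genes, and without KO 1 or KO 2, 2 were higher. Phc1 passed in 13 of 19 alternatives. Of 5 tested erasers of Polycomb marks, Kdm6b, a demethylase of H3K27me3, was lower (-1.14, limma, adjusted p = 0.0429), passing in 9 of 19 alternatives, while the others did not pass.

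Around DNA methylation, 1 of 7 tested cofactors was higher and 0 lower (13.1% and 13.3% of all genes), with a median log2 change of 0.42. This was Hells, a chromatin remodeler needed for methylation of repeats, with an FPKM of 4.09, 0.885 and 2.53 in WT and of 11.9, 18.3 and 19.0 in KO. The groups did not overlap, and the log2 change was 2.40 (limma, adjusted p = 0.00774). Of 8 genes from families that hold readers of methylated CpG, 0 were higher and 2 lower. These were Zbtb4 (-2.30, limma, adjusted p = 0.00878), which reached the filter in WT only, and Mbd2 (-0.83, adjusted p = 0.0489). Mbd2 passed in 7 of 19 alternatives and was at -0.01 with TPM. Without WT 2, 3 of these 8 genes were higher and 2 lower, and 3 cofactors were higher, against 26.8% and 25.3% of all genes. With any other library left out, 0 of the 8 were higher and 1 was lower.

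Of 9 tested partners of the Tet enzymes and genes of base excision repair, 3 were higher and 0 lower (13.1% and 13.3% of all genes), with a median of 1.07. Cxxc5, a CXXC zinc finger protein, had an FPKM of 2.05, 16.9 and 3.64 in WT and of 64.4, 47.2 and 48.1 in KO (log2 change 3.09, limma, adjusted p = 0.0149). Tdg, the glycosylase that cuts out oxidized methylcytosine, had an FPKM of 8.64, 2.86 and 8.08 in WT and of 23.7, 21.2 and 22.8 in KO (log2 change 1.76, limma, adjusted p = 0.0187). Neither overlapped between groups. Apex1, the endonuclease that acts after the glycosylase, had a log2 change of 1.07 (limma, adjusted p = 0.0387) and passed in 13 of 19 alternatives, while Cxxc5 and Tdg passed in 16 each. Without WT 2, 6 of the 9 were higher, against 26.8% of all genes, but without KO 2 or KO 3 0 were, and without KO 1, 1 was.

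Genes that these systems are known to silence were mostly off in both groups. Of 10 germline genes kept silent by DNA methylation, 8 stayed under an FPKM of 1 in all 6 libraries and 4 were at 0 throughout. The exception in KO was Brdt, a testis bromodomain protein, with an FPKM of 0.0253, 0.316 and 0.0126 in WT and of 14.6, 10.7 and 7.43 in KO (log2 change 3.38, limma, adjusted p = 0.00069). Of 12 developmental genes silenced by PRC2, 9 stayed under an FPKM of 1 and 5 were at 0 throughout. Cdkn2a, the cell cycle inhibitor locus, had an FPKM of 0.829, 8.06 and 1.87 in WT and of 12.7, 24.8 and 44.7 in KO (log2 change 2.80, limma, adjusted p = 0.0276), whereas its neighbor Cdkn2b was at 1.68 to 2.65 in WT and 1.54 to 2.95 in KO. Cdkn2a passed in 14 of 19 alternatives, and its call was lost without WT 1 (limma, adjusted p = 0.077), WT 3 (0.0729), KO 2 (0.0974) or KO 3 (0.105) and with no filter on low values (0.0568). Lhx2, a homeobox gene, was at 0 to 0.0387 in WT and at 1.91, 2.07 and 4.27 in KO (log2 change 1.83, limma, adjusted p = 0.00403). Brdt and Lhx2 reached the filter in KO only.

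**Figure D4:**
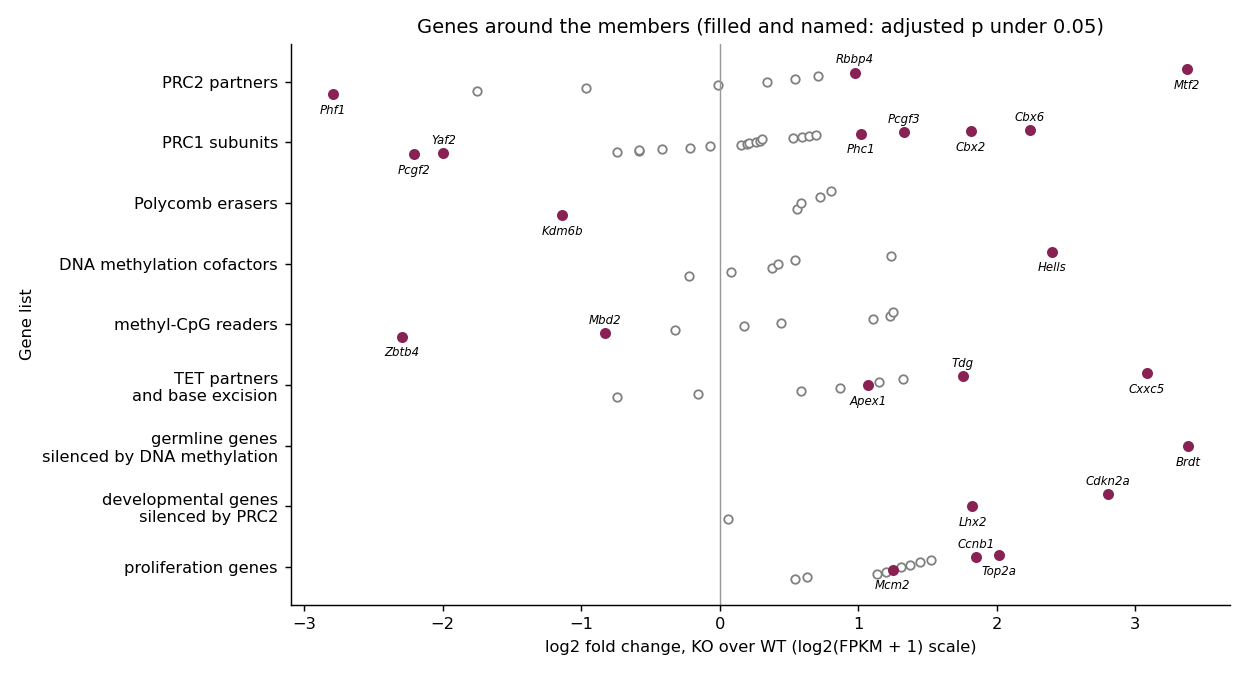
Log2 fold change, KO over WT, on the log2(FPKM + 1) scale, of each tested gene in 9 lists around the 10 regulators; filled and named points have an adjusted p under 0.05, and open points do not. Mtf2 at 3.38 and Phf1 at -2.79 stand at the ends of the PRC2 partners, and the open points of most lists lie on both sides of 0.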

How the data were processed

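The deposited file gives FPKM per gene, computed by the authors from paired-end reads (Trizol RNA, NEBNext library, NovaSeq), with gene lengths and coordinates. The submitters' processing notes name HISAT2 2.0.5 and featureCounts 1.5.0-p3, and use of strand is not given in the sources used here. Coordinates equalled those of GENCODE M21 (GRCm38) for 53548 of 54532 genes. The authors tested counts, which were recovered here: FPKM times length was a whole multiple of 1 step, within 0.1, for 100% of values in each library. The library size by which the authors divided was 0.645 to 1.21 times the recovered total, so a scaling factor is part of the FPKM, and PCR copies make reads dependent.

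The main test was limma 3.58.1 (R 4.3.3; lmFit, eBayes with trend, two-sided) on log2(FPKM + 1), which understates the change of low genes, for genes that reached an FPKM of 1 in 3 or more libraries. Its script was tested on simulated data. Ratios were compared by exact permutation. The R package data.table (version 1.17.8) and, under Python 3.11.15, SciPy 1.17.1, NumPy 2.4.6, pandas 2.3.3 and Matplotlib 3.10.9 were also used. The 10 genes, 9 pathway and 8 marker lists, tests and alternatives were chosen with earlier results of these data known. Named are the 10 genes, Ezh1, Pcna, Phf6 and, of each list, genes past the threshold or up to 3 with the smallest p; any other gene is named after its values were seen (Cdkn2b was the third tested gene of its list). Alternatives were other pseudocounts, filters and scalings, removal of a trend with gene length, eBayes without trend, array weights, the replicate block, voom on recovered reads and leaving out each library. Promoter windows and motifs were also chosen after values were seen. Libraries were grouped by label. Nothing says that they came from separate mice, so p-values measure the spread between libraries, which may be technical.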

Additional observations from a re-analysis of the deposited data

How the results depend on the processing

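The number of all genes called was 3539 and became 1837 with a mean FPKM of at least 5, 8461 with array weights and 7761 on TPM without WT 2, and between 1934 and 6967 when 1 library was left out (the lowest without KO 2, the highest without WT 2). Of the 10 regulators, 5 were called in the main test, 3 with a mean FPKM of at least 5 (where Tet1 and Tet2 were not tested), and 8 with quantile normalization, array weights or TPM without WT 2. Of all genes, 26.4% were called in the main test and 22.1% with that stricter filter. The share was 29.7% with quantile normalization, 63.2% with array weights and 57.9% on TPM without WT 2. Leaving out 1 library gave between 2 and 8 of the 10, and between 14.4% and 52.0% of all genes. The number higher was 4, rose to 7 with quantile normalization, array weights or TPM without WT 2 and ranged from 2 to 7 with a library left out, while the number lower was 1, fell to 0 with the stricter filter and ranged from 0 to 1. Of all genes, 13.1% were higher in the main test, and 15.8%, 32.8% and 39.4% in those 3 alternatives. Voom on the recovered reads called 3318 genes and 5 of the 10. Without a filter on low values, 4 were called, when 12.9% of all genes were, and Dnmt1 missed (adjusted p = 0.0707). Of all calls, 49.6% were higher in KO in the main test, 67.8% on TPM and 60.0% with voom, where the median log2 change of all genes was 0.86 and 0.56 against 0.09.

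Signs turned for results that had not passed. Eed, at -0.12, was at 0.68 on TPM, 0.28 with voom and 0.057 on TPM without WT 2; relative to the median of all genes, it was at -0.17 on TPM and -0.28 with voom. Tet3, at 0.84, was at -0.073 with array weights and between -0.073 and 1.32 with a library left out. The log2 ratio of Dnmt3a to Dnmt3b, at -0.28, lay between -0.54 and 0.11, and was positive without KO 3. Causes were not tested.

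Same-numbered libraries did not deviate together (correlations of 0.095, 0.105 and -0.153 for the 3 numbers), so the replicate block is given once: with it, 2676 genes and 5 of the 10 regulators were called, Dnmt3b passing (adjusted p = 0.0455) and Dnmt3a missing (0.0534).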

Other observations

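Other annotated transcripts overlap 9 of the 10 genes, all but Uhrf1, and without stated use of strand their reads and those of these 9 cannot be told apart. Within Ezh2 lies the pseudogene Gm44282, with an FPKM of 0.341, 0 and 0 in WT and of 1.70, 3.01 and 1.63 in KO, chosen after its values were seen.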
